A study of Mus musculus with 6 samples.

Results

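Metallothioneins and the genes that sense and move zinc were examined in mouse liver as 5 genes, Mt1, Mt2, Mtf1, Slc30a1 and Slc39a14. They were matched by gene symbol among the 22599 genes of the deposited tables, and all 5 were among the 13205 genes with enough counts to be tested. The genes were selected on measured values in part, namely the spread of Mt1 between libraries, so the values of Mt1 are given as a description, with no test. Bulk RNA sequencing was done on 6 liver libraries that the titles place at 0 h of ischemia-reperfusion. One group of 3 libraries is from mice that carry floxed alleles of Ncor1 (NcoR1fl/fl, titled flox, genotype label WT). The second group of 3 came from mice titled NcoR1 and called NcoR1ΔHep in the housing protocol (genotype label knockdown NcoR1), a name that denotes loss of the gene in hepatocytes. All 6 carry a treatment label of liver ischemia-reperfusion, and whether the 0 h livers were operated on is not given in the sources used here. Nor are the age and sex of the mice, the driver of the deletion, or whether each library came from a separate mouse. P-values therefore measure the spread between these libraries. Values of a group are listed in the order of replicates 1, 2 and 3.

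Metallothioneins are small proteins rich in cysteine that bind zinc and copper and also trap toxic metals such as cadmium. When free zinc rises, the zinc-finger factor MTF-1 moves onto metal response elements in the promoters of metallothionein genes and of Slc30a1, which encodes the exporter ZnT1. In liver, metallothionein genes are also raised by glucocorticoids, by the cytokine IL-6 and by oxidative stress, and the importer ZIP14 (Slc39a14) is raised by IL-6 in the acute-phase response.

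The 3 genes in which cores of metal response elements were found are shown here by the bases before their starts. Starts were taken from the RefSeq table of build GRCm38.p6, in which 4 of the 5 genes had an entry. Slc39a14 had none and was not searched. Each sequence is the 250 bases upstream of the listed start, on the plus strand, and capitals mark the element core searched, TGCACNC or TGCGCNC, on either strand. Where the core lies on the minus strand, the capitals show its reverse complement. Mt1 covers chr8:94178839-94179088, Mt2 covers chr8:94172368-94172617 and Slc30a1 covers chr1:191906531-191906780.
Mt1: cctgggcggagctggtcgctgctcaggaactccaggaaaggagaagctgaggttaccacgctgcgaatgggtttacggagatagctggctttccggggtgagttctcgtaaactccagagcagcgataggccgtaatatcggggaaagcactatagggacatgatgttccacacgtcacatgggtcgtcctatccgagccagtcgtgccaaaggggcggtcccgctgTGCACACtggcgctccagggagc
Mt2: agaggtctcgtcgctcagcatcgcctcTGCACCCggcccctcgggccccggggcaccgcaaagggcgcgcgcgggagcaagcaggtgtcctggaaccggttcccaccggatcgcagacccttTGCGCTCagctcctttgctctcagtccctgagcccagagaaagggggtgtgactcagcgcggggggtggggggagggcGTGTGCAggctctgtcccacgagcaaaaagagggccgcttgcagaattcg
Slc30a1: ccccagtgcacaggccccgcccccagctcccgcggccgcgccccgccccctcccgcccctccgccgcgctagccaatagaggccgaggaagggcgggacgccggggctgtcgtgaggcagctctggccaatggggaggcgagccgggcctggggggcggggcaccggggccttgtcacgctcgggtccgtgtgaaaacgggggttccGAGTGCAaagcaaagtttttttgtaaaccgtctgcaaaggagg

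Over the full 300-base window, which runs from 250 bases before to 50 bases after the listed start, Mt1 held 3 cores, Mt2 held 4 and Slc30a1 held 2. No core was found in the window of Mtf1 itself. Of 32851 such windows (27025 genes), 25.7% held at least 1 core, 7.11% at least 2, 1.97% at least 3 and 0.517% at least 4. In Mt1, 2 of the 3 cores lay just past the listed start, in the 25-base stretch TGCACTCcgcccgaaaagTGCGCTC at chr8:94179091-94179115. The start listed for Mt1 lies 152 bases before the most downstream start that GENCODE M21 annotates for the gene, so the window does not reach the bases next to that start. A match of letters is a description, and no binding was measured in these libraries.

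Mt1 and Mt2 lie on the plus strand of chromosome 8, separated by 5513 bases in GENCODE M21 (GRCm38). Mt2 spans chr8:94172664-94173568 and Mt1 spans chr8:94179082-94180327, and the first listed transcript of each has 3 exons. Mtf1 spans chr4:124802104-124849800, Slc30a1 spans chr1:191906767-191913247 and Slc39a14 lies on the minus strand at chr14:70303469-70351425. Mtf1 overlaps the protein-coding gene 1110065P20Rik on the opposite strand (1573 counts over the 6 libraries), and Slc30a1 overlaps the antisense transcript 1700034H15Rik (20 counts). Mt2 overlaps the antisense transcript Gm45774, for which no value is used here. The strand setting of the counting is not given in the sources used here, so reads from a gene and its opposite-strand partner cannot be told apart. How reads shared by the closely related Mt1 and Mt2 were assigned is not given either, so the split between these paralogs is uncertain.

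Libraries held 36975231 to 38470468 counts, and 16620 to 17770 genes had at least 1 count. Ncor1, the gene named by the labels, had FPKM values of 6.78, 6.70 and 7.72 in the flox libraries, against 5.34, 6.63 and 4.93 for NcoR1ΔHep. FPKM is the count per 1000 bases of gene and per 1000000 counts of the library. The log2 fold change of Ncor1 was -0.31 (SE 0.21; edgeR quasi-likelihood adjusted p = 0.931), so the groups rest on the labels. NcoR1ΔHep 1 stood apart in sex-linked transcripts, with 17138 counts of Xist against 6 to 18 elsewhere. The Y-linked Eif2s3y, Kdm5d, Uty and Ddx3y (4 genes) added up to 0.499 CPM in it (CPM is counts per 1000000 in the library, scaled by TMM, edgeR's composition factor), against 115 to 301 CPM elsewhere. This is the transcript pattern of a female liver, and the other 5 libraries have that of male livers, while the labels give no sex. No flox library had the female pattern, so sex and the other differences of NcoR1ΔHep 1 cannot be told apart. NcoR1ΔHep 1 also held the highest level of both metallothioneins, and the fold changes of the 5 genes are given below without it. Hepatocyte markers, such as Tat and Apob, summed to 104000 to 132000 CPM in flox and 103000 to 125000 CPM in NcoR1ΔHep, with all 10 of 10 detected. Tat, a tyrosine-degrading enzyme that glucocorticoids also induce, ran from 205 to 291 FPKM in flox and from 326 to 436 FPKM in NcoR1ΔHep, so its groups did not overlap (log2 fold change 0.74, SE 0.27; edgeR adjusted p = 0.931).

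Mt1, the major inducible metallothionein of liver together with Mt2, varied more between libraries than almost any other gene. The flox libraries held 5.25, 8.06 and 23.1 FPKM of it and the NcoR1ΔHep libraries 109, 29.4 and 7.05 FPKM. NcoR1ΔHep 1 was 3.71 times the next library and 20.8 times the lowest, and NcoR1ΔHep 3 lay below flox 2 and flox 3, so the groups overlapped. Only 0.47% of tested genes had a log2 range over the 6 libraries at least as large, a spread for which Mt1 was picked.

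Flox averaged 12.1 ± 9.58 FPKM of Mt1 and NcoR1ΔHep 48.6 ± 53.7 FPKM (SD, n = 3 each). The log2 fold change was 1.92, given with no interval because Mt1 was picked for its spread. Without NcoR1ΔHep 1 it was 0.61, and the other 2 NcoR1ΔHep libraries averaged 18.2 FPKM. Counting error was small beside this spread. The 251 counts of flox 1 have a 95% Poisson interval of 221 to 284 and the 5151 counts of NcoR1ΔHep 1 one of 5011 to 5294, which cover counting error only. The intervals overlapped for 1 pair of neighbours in the order, flox 2 (390 counts, 352 to 431) and NcoR1ΔHep 3 (331 counts, 296 to 369).

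**Figure D1:**
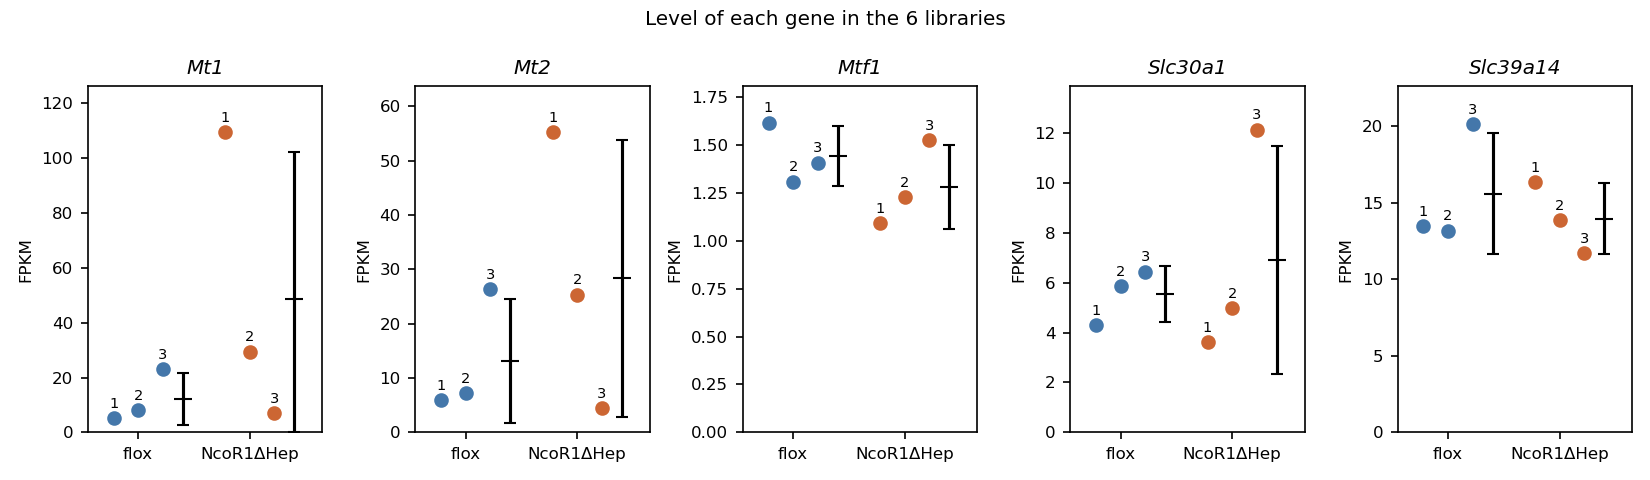
Level of each gene in FPKM (vertical axis, from 0) in each library (points, numbered by replicate) of flox and NcoR1ΔHep, with the mean and SD of each group beside them (n = 3; the lower bar of Mt1 in NcoR1ΔHep stops at 0). Mt1 and Mt2 are highest in NcoR1ΔHep 1 and low in flox 1, flox 2 and NcoR1ΔHep 3, Slc30a1 is highest in NcoR1ΔHep 3, and the groups overlap in all 5 genes.

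Mt2, the neighbouring metallothionein, divided the libraries in the same way. Its FPKM values were 5.92, 7.25 and 26.3 for the flox libraries and 55.3, 25.3 and 4.43 for those of NcoR1ΔHep. Both genes were high in flox 3, NcoR1ΔHep 1 and NcoR1ΔHep 2 and low in the other 3 libraries, a division that crosses the genotypes. Flox 3 (541 counts, 95% Poisson interval 496 to 589) and NcoR1ΔHep 2 (525 counts, 481 to 572) did not differ beyond counting error. Flox 1 (125 counts, 104 to 149) overlapped in the same way with flox 2 (155 counts, 132 to 181) and with NcoR1ΔHep 3 (92 counts, 74 to 113).

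Flox averaged 13.2 ± 11.4 FPKM of Mt2 and NcoR1ΔHep 28.3 ± 25.6 FPKM (SD, n = 3 each). Its log2 fold change was 1.04 (SE 0.83, 95% interval -0.87 to 2.95; edgeR adjusted p = 0.931), or 0.20 without NcoR1ΔHep 1 and 2.05 without flox 3. Across the 6 libraries, Pearson's r between Mt1 and Mt2 was 0.97 and Spearman's rho 0.89 on log2(CPM + 1). Both are descriptions of libraries that share a depth and a scaling. Mt3, a metallothionein of brain, had 1 count in flox 1 and 0 in the other 5 libraries.

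The ratio of the metallothioneins depended on the gene length by which counts were divided. Mt1 was 0.887 times Mt2 in FPKM in flox 1, 1.11 times in flox 2 and 0.877 times in flox 3. In NcoR1ΔHep 1, NcoR1ΔHep 2 and NcoR1ΔHep 3 it was 1.98, 1.16 and 1.59 times Mt2. The deposited values thus put Mt2 above Mt1 in 2 libraries. The length behind the deposited FPKM of Mt1 was 1258 bases, 2.29 times the 549 bases of its first spliced transcript in GENCODE M21, whereas that of Mt2 was 556 bases, 1.09 times the 511 bases of the corresponding Mt2 transcript. Divided by these transcript lengths instead, Mt1 exceeded Mt2 in all 6 libraries, by 1.85 to 2.34 times in flox and 2.45 to 4.16 times in NcoR1ΔHep. Fold changes between libraries are not touched by the length. For Slc39a14 the length behind FPKM was 10218 bases, against 2098 bases in its first spliced transcript.

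Mtf1, the metal-sensing factor, was the steadiest of the 5 genes. Levels were 1.62, 1.31 and 1.41 FPKM among the flox libraries, against 1.09, 1.23 and 1.52 FPKM among those of NcoR1ΔHep. The highest library was 1.48 times the lowest, and NcoR1ΔHep 1, where both metallothioneins were highest, was the lowest for Mtf1. Flox averaged 1.44 ± 0.157 FPKM and NcoR1ΔHep 1.28 ± 0.222 FPKM (SD, n = 3 each). The log2 fold change was -0.13 (SE 0.24, 95% interval -0.68 to 0.43; edgeR adjusted p = 0.955), and 0.04 without NcoR1ΔHep 1. MTF-1 is controlled largely by zinc binding and its place in the cell, which transcript levels do not report.

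Slc30a1, which encodes the plasma membrane exporter ZnT1 and is a classical MTF-1 target, differed from the metallothioneins in the NcoR1ΔHep libraries. In flox it stood at 4.29, 5.86 and 6.44 FPKM, and in NcoR1ΔHep at 3.61, 4.97 and 12.1 FPKM. It was highest in NcoR1ΔHep 3, where Mt2 had its lowest value, though not apart from flox 1 beyond counting error. It was lowest in NcoR1ΔHep 1, where Mt1 and Mt2 were highest. Within flox it was, like them, lowest in flox 1 and highest in flox 3. Flox averaged 5.53 ± 1.11 FPKM and NcoR1ΔHep 6.90 ± 4.57 FPKM (SD, n = 3 each). The log2 fold change was 0.38 (SE 0.49, 95% interval -0.75 to 1.51; edgeR adjusted p = 0.942), and its sign rested on NcoR1ΔHep 3, without which it was -0.43. Without NcoR1ΔHep 1 it was 0.75. Pearson's r on log2(CPM + 1) over the 6 libraries was -0.45 with Mt1 and 0.79 with Mtf1.

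Slc39a14 encodes ZIP14, which carries zinc, manganese and iron that is not bound to transferrin into hepatocytes. Its level was 13.5, 13.2 and 20.1 FPKM for the flox libraries, and 16.3, 13.9 and 11.7 FPKM for NcoR1ΔHep. Flox 3 was the highest and NcoR1ΔHep 3 the lowest, with a ratio of 1.72 between them. The flox mean was 15.6 ± 3.94 FPKM and the NcoR1ΔHep mean 14.0 ± 2.32 FPKM (SD, n = 3 each). The log2 fold change was -0.15 (SE 0.25, 95% interval -0.72 to 0.41; edgeR adjusted p = 0.951), or 0.09 without flox 3 and -0.20 without NcoR1ΔHep 1. Its 3 highest libraries in FPKM were those in which Mt1 and Mt2 were high, but flox 2 exceeded NcoR1ΔHep 2 when scaled by TMM (144 against 140 CPM).

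Of the 4 genes other than Mt1, 0 passed an adjusted p of 0.05 in edgeR, DESeq2, limma-voom or limma on log2(FPKM + 1), and 0 had an unadjusted p under 0.05. In edgeR 0 of all 13205 tested genes passed (0%), and 443 (3.35%) had an unadjusted p under 0.05. DESeq2 called 5 of 20289 genes (0.0246%). The groups overlapped in all 5 genes on TMM-scaled CPM, where they did not overlap in 8.82% of tested genes. The absence of calls therefore matches the table as a whole. The interval of Mt2 reaches 2.95 log2 units, so these libraries do not bound a difference in Mt2 between the genotypes closely.

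Zinc transporters were read from family lists, which include Slc30a1 among the ZnT genes and Slc39a14 among the ZIP genes. ZnT proteins, the SLC30 family, move zinc out of the cytosol. Of 10 ZnT genes, 7 were tested, 3 were higher and 4 lower in NcoR1ΔHep, where 53.5% of all tested genes were higher. Their median fold change (log2) was -0.02, beside 0.03 over all tested genes. Without NcoR1ΔHep 3 it was -0.43, with 1 of 7 higher, and without NcoR1ΔHep 1 it was 0.08, with 4 of 7 higher. Without flox 3, 1 of 7 was higher. With Slc30a1 taken out of the list, 2 of 6 were higher (median -0.04). That became 1 of 6 without NcoR1ΔHep 3 (-0.32), 0 of 6 without flox 3 (-0.07) and 3 of 6 without NcoR1ΔHep 1 (0.03). No ZnT gene passed edgeR's adjusted threshold or had an unadjusted p under 0.05. Slc30a10, a manganese exporter, had 11.6, 9.23 and 4.41 FPKM in flox against 3.63, 4.16 and 6.15 FPKM in NcoR1ΔHep. The groups overlapped, because flox 3 lay below NcoR1ΔHep 3, and the log2 fold change was -0.79 (SE 0.38; edgeR adjusted p = 0.931). Slc30a7, a transporter of the Golgi, had a log2 fold change of -0.23 (SE 0.28; edgeR adjusted p = 0.938).

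Some of the other ZnT genes had their extremes in the same libraries as Slc30a1. Of the 6 tested besides it, 4 had their highest TMM-scaled CPM in NcoR1ΔHep 3 and 5 their lowest in NcoR1ΔHep 1. Over all tested genes, 19.7% were highest in NcoR1ΔHep 3 and 28.3% lowest in NcoR1ΔHep 1. Slc30a4, an exporter of endosomes, and Slc30a5, of the secretory pathway, thus ranked NcoR1ΔHep 3 first as Slc30a1 did, over a smaller range (1.99 to 4.03 FPKM for Slc30a4 and 8.36 to 10.9 FPKM for Slc30a5).

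ZIP proteins, the SLC39 family, bring zinc into the cytosol. Of 14 ZIP genes, 12 were tested, with 2 higher and 10 lower in NcoR1ΔHep. Their median fold change (log2) was -0.18, which stayed between -0.20 and -0.13 when any 1 library was left out. The number higher ran from 1 of 12 without NcoR1ΔHep 2 to 5 of 12 without flox 3. With Slc39a14 taken out of the list, 2 of 11 were higher. The median was then -0.21, from -0.27 without flox 3 to -0.15 without flox 1. No ZIP gene passed edgeR's adjusted threshold or had an unadjusted p under 0.05. Slc39a9 had 12.6, 10.6 and 8.26 FPKM in flox against 6.11, 7.23 and 7.89 FPKM in NcoR1ΔHep. In FPKM every NcoR1ΔHep library was below every flox library, but with TMM scaling the groups overlapped (log2 fold change -0.52, SE 0.24; edgeR adjusted p = 0.931). Slc39a7, which releases zinc from the endoplasmic reticulum, had -0.26 (SE 0.22; edgeR adjusted p = 0.931). Slc39a4, the importer best known from intestine, ran from 11.6 FPKM in NcoR1ΔHep 1 to 28.8 FPKM in NcoR1ΔHep 2, and these extremes both lay within NcoR1ΔHep.

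**Figure D2:**
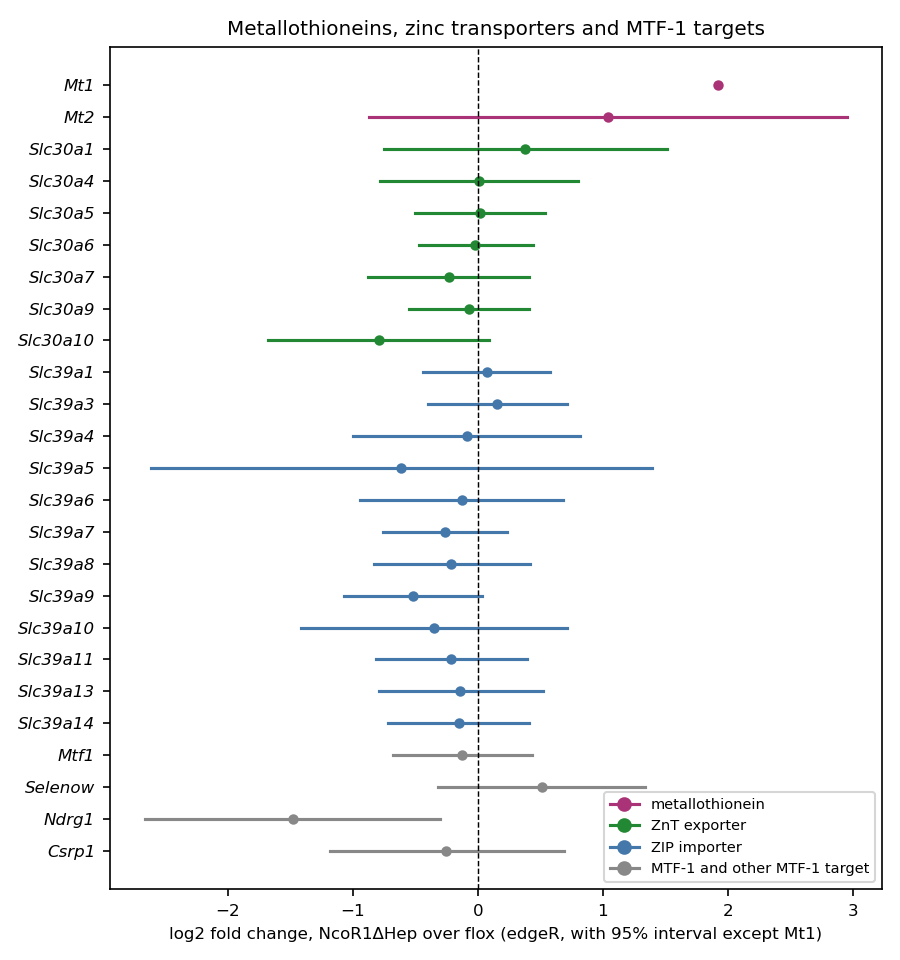
Log2 fold change of NcoR1ΔHep over flox (horizontal axis; points) with 95% intervals (lines) from edgeR, for the 25 tested genes of the metallothionein, ZnT, ZIP and MTF-1 lists, coloured by list, with no interval for Mt1. The intervals of 23 genes span 0, and the interval of Ndrg1 (-2.66 to -0.30) lies below it before adjustment for the number of genes.

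In a list of Mtf1 and genes described as MTF-1 targets, the direction differed from gene to gene. The list held 8 tested genes including Mt1, Mt2 and Mtf1, of which 4 were higher and 4 lower (median of the log2 fold changes 0.13, or -0.18 without NcoR1ΔHep 3). Without Mtf1, Mt1, Mt2 and Slc30a1, 1 of the remaining 4 was higher and the median was -0.30. That median ran from -0.49 without NcoR1ΔHep 2 to -0.11 without flox 1. These counts mix induced genes with Slc39a10, which MTF-1 represses, and the count of 8 includes Mtf1 itself. They therefore give no direction for the targets as a whole. Selenow, a small selenoprotein, had 55.9, 59.0 and 90.6 FPKM in flox against 158, 80.6 and 59.0 FPKM in NcoR1ΔHep. It was thus higher in the same 3 libraries as Mt1 and Mt2, over a smaller range (log2 fold change 0.51, SE 0.36, edgeR adjusted p = 0.931). With TMM scaling it lay only 0.03 (log2) above its 6-library mean in NcoR1ΔHep 2. It ordered the libraries as did the median of genes under 1000 bases, given below. The part of gene length in the level of Selenow was not tested. Ndrg1, a stress-responsive gene that hypoxia also induces, was at 17.9 FPKM in flox 1 and 2.19 to 7.78 FPKM elsewhere (log2 fold change -1.48, SE 0.51; edgeR adjusted p = 0.931). Csrp1 had 5.48, 3.1 and 4.48 FPKM in flox against 2.67, 6.2 and 1.95 FPKM in NcoR1ΔHep. It was thus below all flox libraries in NcoR1ΔHep 1, where Mt1 and Mt2 were highest (log2 fold change -0.25, SE 0.41; edgeR adjusted p = 0.951). Slc39a10, which MTF-1 is known to repress when zinc is high, was lowest in 2 libraries with high Mt1, flox 3 (0.147 FPKM) and NcoR1ΔHep 2 (0.159 FPKM). It was at 0.289 FPKM in NcoR1ΔHep 1 and 0.315 to 0.478 FPKM in the 3 libraries with low Mt1.

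**Figure D3:**
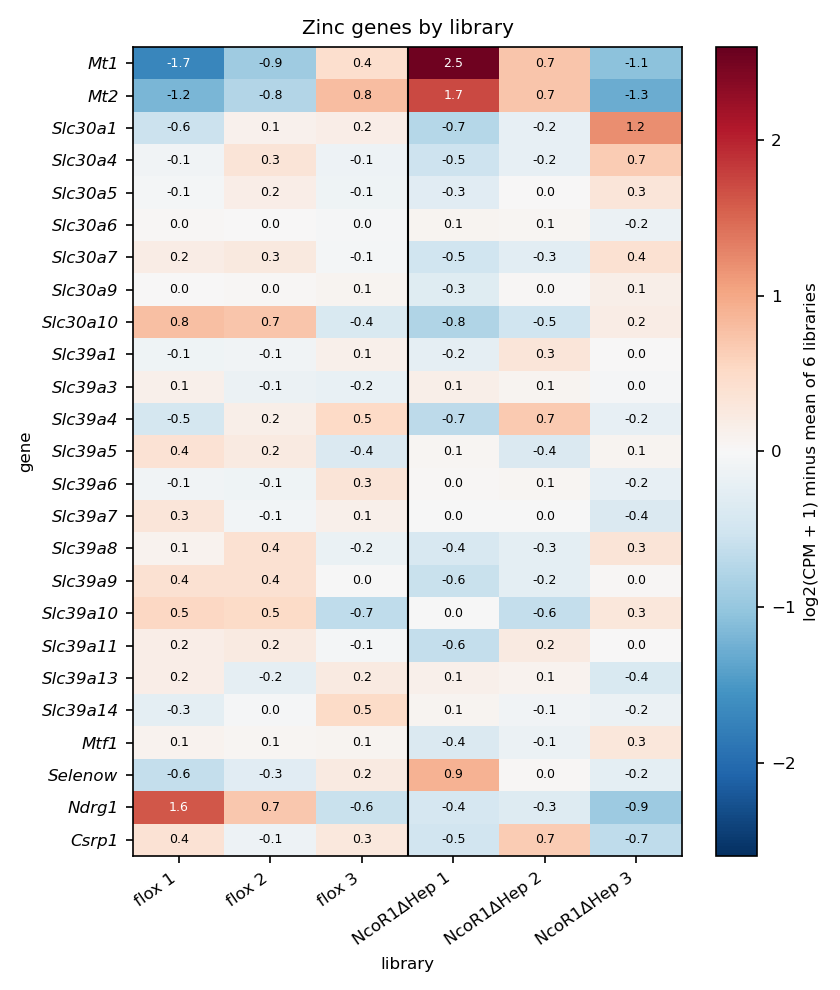
Deviation of each of the 25 genes (rows) from its mean over the 6 libraries (columns), in log2(CPM + 1) scaled by TMM, with flox to the left of the line and NcoR1ΔHep to the right (red higher, blue lower). Mt1 runs from -1.70 in flox 1 to 2.52 in NcoR1ΔHep 1 and Mt2 from -1.28 to 1.71, whereas Slc30a1 is at -0.74 in NcoR1ΔHep 1 and highest in NcoR1ΔHep 3.

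Gene length moved with the metallothioneins over the libraries. Among the 770 tested genes with a length behind FPKM under 1000 bases, the median deviation from the 6-library mean was 0.39 (log2) in NcoR1ΔHep 1 and 0.07 in flox 3. It was 0.01 in NcoR1ΔHep 2, -0.13 in NcoR1ΔHep 3, -0.18 in flox 2 and -0.22 in flox 1. The 5779 genes of 4000 bases and over ran the other way, with -0.08 in NcoR1ΔHep 1 and 0.05 and 0.06 in flox 1 and flox 2. NcoR1ΔHep 1 thus had the highest median deviation for short genes, and the order of the libraries for short genes was close to that for Mt1. Genes within 1.2 times the length of Mt2 (219 genes) had a median log2 fold change of 0.33, beside 1.04 for Mt2. Genes whose length behind FPKM was near that of the spliced Mt1 transcript (221 genes) had one of 0.33, beside 1.92 for Mt1. Less these medians, the fold changes were 0.71 for Mt2 and 1.59 for Mt1. The log2 range of Mt1 over the 6 libraries was 4.22, and 3.57 after the median of genes of that length was subtracted in each library. With Mt1 placed by its own length behind FPKM, 1258 bases (934 genes), the median was 0.16. Mt1 then kept a fold change of 1.76 and a range of 3.87. The part of fragment length, RNA quality and library preparation in this order was not tested.

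**Figure D4:**
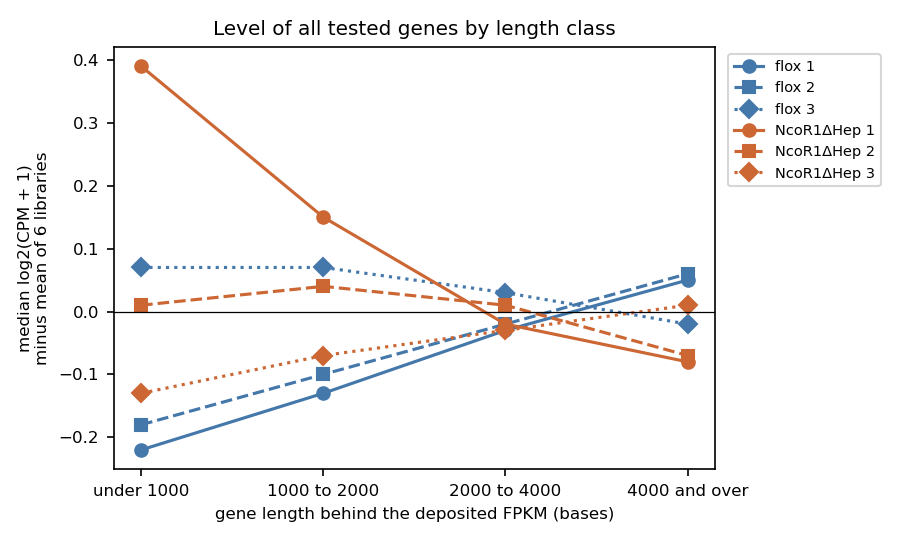
Median deviation of all tested genes from their 6-library mean (vertical axis, log2(CPM + 1) scaled by TMM) in 4 classes of the gene length behind FPKM (horizontal axis, bases), with 1 line per library. Genes under 1000 bases lie at 0.39 in NcoR1ΔHep 1 and at -0.22 in flox 1, and the lines lie closer together between 2000 and 4000 bases.

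Inducers of metallothionein were read from lists of their targets. Of glucocorticoid targets, without Mt1 and Mt2, 9 of 13 were higher in NcoR1ΔHep (median of the log2 fold changes 0.15). The median was 0.81 without flox 3 (10 of 14 higher), 0.41 without NcoR1ΔHep 3, 0.23 without NcoR1ΔHep 1 and 0.10 without flox 1, and 7 of 13 were higher without flox 2. Their mean level was above the 6-library mean in flox 3 (0.51 log2), NcoR1ΔHep 2 (0.41) and, slightly, NcoR1ΔHep 1 (0.08), the library with the most Mt1. It was below that mean in flox 1 (-0.46), NcoR1ΔHep 3 (-0.29) and flox 2 (-0.25). The level in NcoR1ΔHep 1 joins genes that ran in opposite directions. Fkbp5 (18.6 FPKM), Tsc22d3 (32.4 FPKM) and Per1 (3.86 FPKM, against 0.147 to 1.44 elsewhere) were highest there. Klf9 was lowest there (18.9 FPKM, against 30.4 to 51.8 elsewhere), and Errfi1 (227 FPKM) lay below every flox library (267 to 372). Summed CPM of the list, with Mt1 and Mt2 counted, ordered the libraries otherwise. NcoR1ΔHep 3 (4990 CPM) lay above flox 3 (4930) and NcoR1ΔHep 1 (4800). The part of glucocorticoids in the level of Mt1 was not tested. Sgk1, a kinase gene that glucocorticoids induce, showed a log2 difference of 0.96 (SE 0.30), and the cell-cycle inhibitor gene Cdkn1a one of -2.08 (SE 0.43), each with an edgeR adjusted p = 0.931.

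Of acute-phase and IL-6 targets, without Slc39a14, 6 of 23 were higher (median of the log2 fold changes -0.16). This direction rested on single libraries. Without flox 3, 14 of 23 were higher (median 0.52), without NcoR1ΔHep 1, 15 of 23 (0.07), and without NcoR1ΔHep 3, 13 of 23 (0.03). The median was -0.54 without NcoR1ΔHep 2, -0.35 without flox 2 and -0.30 without flox 1, each with 4 of 23 higher. Their mean level was 1.0 in flox 3 and 0.79 in NcoR1ΔHep 2, and -0.31 to -0.56 in the other 4 libraries. NcoR1ΔHep 1, at -0.53, was therefore low for acute-phase genes and highest for Mt1 and Mt2. Slc39a14 was highest in flox 3, too, but NcoR1ΔHep 2 lay close to flox 1 and flox 2. Hamp, the iron hormone hepcidin, showed a log2 difference of 1.19 (SE 0.58), and Orm3, an orosomucoid, one of 2.19 (SE 0.94), each with an edgeR adjusted p = 0.931. Both were highest in NcoR1ΔHep 1, at 4160 FPKM for Hamp and 8.67 FPKM for Orm3.

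Of NRF2 targets, the antioxidant genes, 8 of 16 were higher (median of the log2 fold changes -0.02, or 0.10 with 10 of 16 higher without NcoR1ΔHep 1). Their mean level ran from -0.16 in NcoR1ΔHep 3 to 0.11 in flox 2 and was 0.02 in NcoR1ΔHep 1. This mean joins genes that ran in opposite directions. Gstm3 had 53.4 FPKM in flox 3, 72.9 in NcoR1ΔHep 1 and 60.9 in NcoR1ΔHep 2, against 24.1 to 37.4 elsewhere. Gclc had 61.3, 42.1 and 71.4 FPKM in those libraries, against 73.5 to 141 elsewhere. The part of NRF2 in the level of Mt1 was not tested. Gsta1 showed a log2 difference of -2.70 (SE 0.71), and Osgin1 one of -1.11 (SE 0.30), each with an edgeR adjusted p = 0.931. Of fasting genes, 5 of 11 were higher (median -0.10, from -0.19 without NcoR1ΔHep 2 to -0.02 without NcoR1ΔHep 3). The 2 with the smallest p were G6pc (-0.42, SE 0.32) and the hormone gene Fgf21 (-0.60, SE 0.52), again with an edgeR adjusted p = 0.931 each. The mean level of fasting genes was 0.14 in NcoR1ΔHep 1 and NcoR1ΔHep 2, -0.40 in NcoR1ΔHep 3 and -0.01 to 0.09 in flox. Lpin1 had 57.5 FPKM in flox 3, 34.7 in NcoR1ΔHep 1 and 43.9 in NcoR1ΔHep 2, against 4.59 to 9.41 elsewhere. Cyp4a10 was instead lowest in flox 3 (69.2 FPKM) and NcoR1ΔHep 2 (78.4 FPKM), against 229 to 290 FPKM elsewhere. The part of fasting in the level of Mt1 was not tested.

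Proteins that use zinc or share metallothionein's metals were read last. Of zinc enzymes of liver, 6 of 17 were higher (median of the log2 fold changes -0.08). Without NcoR1ΔHep 1, 10 of 17 were higher (0.03), and without NcoR1ΔHep 3, 3 of 17 (-0.20). Alad, the zinc enzyme of heme synthesis, reached 37.7 FPKM in NcoR1ΔHep 1, beside 14.0 to 19.3 FPKM elsewhere (log2 fold change 0.57, SE 0.30), and the peptidase gene Ace had -1.24 (SE 0.63), each with an edgeR adjusted p = 0.931. Of copper handling genes, 7 of 11 were higher (median 0.14, or -0.04 without NcoR1ΔHep 3 and 0.24 without NcoR1ΔHep 2). The copper chaperone genes Cox17 and Atox1 were highest in NcoR1ΔHep 1, with Cox17 at 75.0 FPKM there and 23.2 to 32.6 FPKM elsewhere and Atox1 at 252 FPKM there and 101 to 136 FPKM elsewhere. Commd1, a regulator of copper export, was at 15.2 FPKM there and 7.53 to 9.24 FPKM elsewhere. Other genes of the list lay otherwise: Sco1 (2.89 FPKM) and Cox11 (10.9 FPKM), which deliver copper to cytochrome oxidase, were highest in NcoR1ΔHep 3, and ceruloplasmin (Cp) was lowest in NcoR1ΔHep 1, at 104 FPKM against 223 to 240 FPKM elsewhere. None of Cox17, Atox1 and Commd1 passed edgeR's adjusted threshold (adjusted p = 0.931 each).

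The genes whose pattern was most like that of each of the 5 were found among 9062 tested genes with a mean of at least 1 FPKM, by Pearson's r of log2(CPM + 1) over the 6 libraries. For Mt1 they were Dap3 (0.999), Abhd17a (0.998), Fkbp8 (0.998), Mif (0.997) and Mrpl2 (0.995). Their range was far smaller than that of Mt1: Dap3 ran from 5.28 to 8.69 FPKM and Mif from 79.9 to 272 FPKM. With log2(FPKM + 1) instead, Mif and Mrpl2 stayed among the 10 most alike, and Dap3 took place 455. For Mt2 the nearest was Cope (0.998), for Mtf1 it was Wdr37 (0.993), for Slc30a1 Cep76 (0.994) and for Slc39a14 Map3k5 (0.987). By log2(FPKM + 1) Cope took place 180 and Cep76 place 4, and Wdr37 and Map3k5 kept place 1. These are the top places among 9062 genes over only 6 libraries, and they are a description.

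Other liver cell types were followed by marker lists, and in bulk tissue fewer cells of a type and less RNA per cell cannot be told apart. All 10 of 10 sinusoidal endothelial markers were lower, and they summed to 175 to 406 CPM in flox and 116 to 234 CPM in NcoR1ΔHep. Their median log2 fold change of -0.69 became -0.30 without flox 1 (1 of 10 higher) and -1.06 without NcoR1ΔHep 1. Stellate cell markers were higher in 10 of 10, with a median of 0.22, and summed to 397 to 467 CPM in flox and 482 to 594 CPM in NcoR1ΔHep, the highest sum being in NcoR1ΔHep 1. Scaled by total counts only, 9 of 10 stellate cell markers were higher, and 8 of 10 in limma-voom, limma on log2(FPKM + 1) and the replicate block. Without flox 2 their median was 0.07 (7 of 10 higher), and it was 0.37 without flox 1, 0.35 without NcoR1ΔHep 1 and 0.34 without NcoR1ΔHep 3. Kupffer cell and macrophage markers were lower in 9 of 11 (409 to 597 CPM in flox and 269 to 608 CPM in NcoR1ΔHep). Their median was -0.34, or -0.09 without NcoR1ΔHep 3, -0.19 without NcoR1ΔHep 1, -0.22 without flox 3 and -0.56 without NcoR1ΔHep 2.

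Cholangiocyte markers were higher in 3 of 4 (40.0 to 57.7 CPM in flox and 42.0 to 168 CPM in NcoR1ΔHep, the highest in NcoR1ΔHep 2). Their median of 0.67 was 0.04 without NcoR1ΔHep 2, 0.14 without flox 3 and 0.20 without flox 2. Neutrophil markers summed to at most 14.9 CPM, in flox 3. They were lower in 4 of 4 (median -0.14), with log2 fold changes from -0.34 to -0.00, and 1 was higher when scaled by total counts only. Without flox 3 they were higher in 4 of 4 (1.25), and without NcoR1ΔHep 1 in 3 of 6 (0.04). With flox 1, flox 2 or NcoR1ΔHep 2 left out the median lay between -0.55 and -0.43, and limma-voom gave 0.44. Lymphocyte markers summed to at most 5.31 CPM and were higher in 5 of 8 (median 0.11), but in 2 of 8 without NcoR1ΔHep 1 (-0.67), and the median was 0.33 without NcoR1ΔHep 2. Erythroid markers were lower in 3 of 5 (267 to 326 CPM in flox and 166 to 283 CPM in NcoR1ΔHep), with a median of -0.48 that was -0.06 without flox 1, -0.17 without NcoR1ΔHep 3, -0.20 without NcoR1ΔHep 1 and -0.27 without flox 2. Exocrine pancreas markers, of which 2 were tested, summed to at most 18.9 CPM. In no list did any gene pass edgeR's adjusted threshold. The part of these cell types in the levels of Mt1 and Mt2 was not tested.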

How the data were processed

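The authors deposited raw read counts per gene symbol and FPKM values for the same 22599 genes in 6 libraries. Each deposited FPKM value was the count divided by 1 length per gene and by the library's total counts. Builds GRCm38, mm10 and hg38 appear, with no role, per the submitters' processing notes. Which aligner, counter and strand setting were used is not given in the sources used here. Genes were kept with filterByExpr (minimum count 10, minimum total 15), scaled by TMM and compared with edgeR 4.0.16 (R 4.3.3), by the quasi-likelihood test, two-sided, with Benjamini-Hochberg adjustment over 13205 genes at 0.05. The test was tried on simulated data. Alternatives were DESeq2 1.42.0, other scalings and filters, limma 3.58.1, the replicate number as a block, and each library left out. The members and gene lists were chosen with earlier results of these data known. Genes were named from the 5 members, the tested genes of the zinc lists and the genes most like each member. From each other list the 2 genes of smallest p were named, with no gene named for cell type lists other than hepatocytes. Atox1, Sco1, Cox11, Cp, Gstm3, Gclc, Fkbp5, Tsc22d3, Per1, Klf9, Errfi1, Lpin1 and Cyp4a10 were named after their values were seen. Promoter windows came from RefSeq (GRCm38.p6) and gene models from GENCODE M21, for sequence and position only.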

Additional observations from a re-analysis of the deposited data

How the results depend on the processing

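No gene was called by edgeR (443 with an unadjusted p under 0.05), and 5 were called by DESeq2 (612 unadjusted). The count was 0 under every other alternative, including 0 to 0 when each library was left out in turn. Fold changes of Mtf1, Slc30a1 and Slc39a14 changed sign when 1 library was left out: Mtf1 to 0.04 without NcoR1ΔHep 1 (lowest -0.37), Slc30a1 to -0.43 without NcoR1ΔHep 3 (highest 0.75) and Slc39a14 to 0.09 without flox 3 (lowest -0.29). The cause was not tested. That of Mt1 ran from 0.61 to 2.79 and that of Mt2 from 0.20 to 2.05 with 1 library left out, and from 1.44 to 2.0 and 0.79 to 1.11 under the other fits planned. The adjusted p of the 4 genes tested was at least 0.626 in all of these. The replicate numbers did not pair the libraries: deviations from the group means correlated at 0.02, -0.38 and -0.52 for numbers 1, 2 and 3. With the replicate block edgeR called 0 genes (175 unadjusted), and the log2 fold change was 1.60 for Mt1, 1.08 for Mt2 and 0.16 for Slc30a1. Subtraction of the fold change of genes of similar length and the ratio per transcript length were added after seeing the data. A minimum of 1 CPM in 3 libraries left no lymphocyte marker, so that value was not computed. Among the 5 genes the smallest count was 92, and counting error leaves the order of some libraries open for Mt1 and Mt2.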
